A study of Mus musculus with 12 samples.

Results

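The nuclear-encoded subunits of the mitochondrial respiratory chain were followed in tumor and stroma of mouse colorectal tumors. Genes were taken by symbol: those beginning with Nduf followed by a, b, c, s or v (complex I), Sdh followed by a, b, c or d (complex II), Uqcr (complex III), Cox with the numerals of the nuclear-encoded subunit families (complex IV) or Atp5 (complex V), without the Ndufaf assembly factors. The rule found 85 of the 22180 genes that had a probe set of their own: 34 for complex I, 8 for complex II, 8 for complex III, 17 for complex IV and 18 for complex V. Of these, 82 passed the filter on low signal and were tested among 16635 genes, while Cox7b2 and Cox8c, both testis isoforms, and the pseudogene Atp5c1-ps lay below it. The symbols also took in 8 genes that are not subunits, namely the assembly factors Sdhaf1 to Sdhaf4, the supercomplex factor Cox7a2l, the paralog Ndufa4l2 and the pseudogenes Atp5c1-ps and Uqcrh-ps1, which left 77 subunits, 75 of them tested. Another 9 genes that match the rule were measured only by probe sets shared with other genes and were not analysed here: Cox6c, Ndufb2, Ndufb4, Ndufb4b, Ndufb4c, Ndufs5-ps, Ndufs6, Ndufs6b and Uqcr10.

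Tumors had been raised in all mice by the AOM/DSS protocol, in which the carcinogen azoxymethane is combined with colitis caused by dextran sulfate sodium. The labels Stat3wt and Stat3dm stood for wild type mice and mice in which Stat3, a transcription factor downstream of cytokine receptors, was conditionally deleted in myeloid cells. Neither the driver of the deletion nor the age of the mice is given in the sources used here. Laser capture took tumor tissue and stroma apart in paraffin material, which gave 4 groups of 3 samples (tumor of wild type mice, their stroma, tumor of deletion mice, their stroma). Each sample pooled 2 tumors of 1 mouse and was measured on 1 array, and whether a tumor and a stroma sample of the same number came from the same mouse is not stated, so the 12 arrays entered the test as independent. The stated aim was to find stromal changes that depend on STAT3 in myeloid cells.

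The respiratory chain lies in the inner mitochondrial membrane. Complexes I and II pass electrons from NADH and succinate to ubiquinone, complex III hands them to cytochrome c, and complex IV reduces oxygen, while complex V uses the resulting proton gradient to make ATP. Subunits encoded in the nucleus assemble with a few subunits encoded by mitochondrial DNA, except in complex II, which is nuclear throughout. In the colon, absorptive epithelium is rich in mitochondria, and its differentiated cells oxidise butyrate from the gut flora.

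Nuclear respiratory chain genes are textbook targets of the transcription factors NRF1, GABP (of the ETS family) and the estrogen-related receptors (ERR). Promoter windows of 300 bases, from 250 bases before to 50 after the start of the RefSeq gene (GRCm38.p6), were searched on both strands for the palindromic NRF1 motif (the capitals of the Ndufa11 window below), a looser form of it with 1 base free, which takes in the strict form, CCGGAAG (ETS/GABP) and TCAAGGTCA (ERR). Windows were supplied for 63 of the 75 tested subunits. Of these, 5 held the strict NRF1 motif (7.9%, against 1.1% of all 27025 genes with a window), 15 held the looser form (23.8%, against 5.2%), 17 held CCGGAAG (27.0%, against 9.9%) and 2 held TCAAGGTCA (3.2%, against 0.5%). The background was not matched for base composition, and a match describes letters in the window and not binding. The windows below belong to 4 subunits whose RNA was lower in stroma than in tumor at the threshold used (values further on). They are the 3 such subunits with the strict NRF1 motif, and Sdhd, which had the smallest p of those with the ERR letters. The windows are written 5′ to 3′ on the strand of the gene, and capitals mark the matches. Ndufa11 (chr17:56717512-56717811, plus strand), a complex I subunit, had the NRF1 letters starting 60 bases before the gene start. Atp5k (chr5:108434350-108434649, minus strand), a complex V subunit, had them 50 bases before the start and the ETS/GABP letters 12 bases after it. Cox6a1 (chr5:115348909-115349208, minus strand), of complex IV, held the NRF1 letters 162 bases before the start, a looser match 117 bases before it and the ETS/GABP letters 16 bases before it. Sdhd (chr9:50603800-50604099, minus strand), of complex II, held a looser NRF1 match 79 bases before the start, the ETS/GABP letters 46 bases before it and the ERR letters 36 bases after it.
Ndufa11: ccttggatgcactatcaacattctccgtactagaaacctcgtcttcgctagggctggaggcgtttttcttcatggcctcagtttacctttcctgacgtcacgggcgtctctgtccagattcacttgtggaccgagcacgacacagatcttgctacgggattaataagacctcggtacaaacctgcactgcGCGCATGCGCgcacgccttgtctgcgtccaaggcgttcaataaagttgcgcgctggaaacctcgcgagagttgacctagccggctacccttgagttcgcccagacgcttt
Atp5k: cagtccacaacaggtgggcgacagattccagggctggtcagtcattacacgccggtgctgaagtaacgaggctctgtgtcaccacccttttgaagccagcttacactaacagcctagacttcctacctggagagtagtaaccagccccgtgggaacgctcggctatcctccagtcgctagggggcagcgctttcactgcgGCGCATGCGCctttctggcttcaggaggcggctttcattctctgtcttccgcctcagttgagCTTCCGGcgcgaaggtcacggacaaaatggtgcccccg
Cox6a1: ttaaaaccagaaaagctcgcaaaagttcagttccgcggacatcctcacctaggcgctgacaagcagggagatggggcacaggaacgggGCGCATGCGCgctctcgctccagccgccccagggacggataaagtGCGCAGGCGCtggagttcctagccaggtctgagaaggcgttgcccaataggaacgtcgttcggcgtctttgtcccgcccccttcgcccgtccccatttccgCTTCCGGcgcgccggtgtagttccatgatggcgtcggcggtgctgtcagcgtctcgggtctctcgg
Sdhd: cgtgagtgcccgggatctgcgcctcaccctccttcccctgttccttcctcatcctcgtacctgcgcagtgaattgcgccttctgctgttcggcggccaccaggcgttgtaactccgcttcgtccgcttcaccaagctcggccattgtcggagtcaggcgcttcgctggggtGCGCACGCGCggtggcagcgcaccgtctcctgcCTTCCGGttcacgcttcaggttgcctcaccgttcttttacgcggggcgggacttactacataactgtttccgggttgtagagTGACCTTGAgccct

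Signals were log2 values, so that a difference of 1 is a doubling, and a level is compared only with the same gene's level in other arrays. Arrays of the same group correlated at 0.881 to 0.967 over the tested genes, 0 of 66 pairs were identical, and the spread of an array's values (SD) ran from 1.65 to 1.91 in tumor and from 1.60 to 1.76 in stroma. Stat3 itself differed between genotypes by 0.00 in stroma (95% confidence interval -0.68 to 0.69) and by -0.27 in tumor (-0.95 to 0.42). The deletion is confined to myeloid cells, and whether its probes fall in the excised region is not stated, so these values are no check of the genotype labels. Markers checked the capture with the genotypes averaged: all 11 epithelial markers were below 0 in stroma minus tumor and 6 were called lower. All 5 goblet cell markers were below 0 and 2 were called lower. The leukocyte, endothelial and fibroblast markers gave 3 of 7, 3 of 6 and 2 of 9 genes called higher, and the smooth muscle markers 0 of 6. Without wild type tumor 3 and deletion tumor 3, the arrays of widest spread, 0 of these markers were called (0% of all genes). The leukocyte median was 4.89 to 5.98 in wild type tumor and 5.27 to 6.44 in wild type stroma, an overlap. It was 5.16 to 5.91 in deletion tumor and 7.01 to 7.47 in deletion stroma. The fibroblast median of stroma 1 in each genotype (8.35 and 8.33) lay within the range of the tumor arrays. Epithelial medians met at 8.26 in the deletion. The goblet cell median was 9.12 to 9.86 in wild type tumor and 9.35 to 10.2 in deletion tumor. It was 6.31 to 8.16 in wild type stroma and 8.69 to 9.75 in deletion stroma, which overlapped the tumor arrays.

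RNA of the respiratory chain was less abundant in stroma than in tumor tissue. With the genotypes averaged (6 tumor against 6 stroma arrays), 26 of the 82 genes fell at an adjusted p of 0.05 (limma over all tested genes) and 0 rose. Over all 16635 genes 2.55% were called in either direction, 1.71% lower and 0.848% higher. The 6 tumor and 6 stroma arrays did not overlap for 25 members, each lower in stroma (1.33% of all genes were lower without overlap). The median log2 difference of the 82 genes was -0.55, a 1.46-fold lower signal, and 73 of them lay below 0, against a median of -0.03 and 8817 genes below 0 over all genes tested. Strongly expressed genes as a class also leaned toward tumor. In the 25% of genes with the highest mean signal the median was -0.27, 3180 of 4159 lay below 0 and 4.91% were called lower. All 26 genes that fell were subunits, and none of the 7 tested genes that are not subunits passed (their median was -0.17, with 2 of them below an unadjusted p of 0.05). The number of calls depended on a few arrays, over all genes as well as for the members. It was 0 members without deletion tumor 2, deletion tumor 3 or wild type stroma 3 (0% of all genes). Without wild type tumor 1 it was 0 (0.00601% of all genes), and without deletion tumor 1 it was 42 (7.79%). The members' median stayed between -0.45 and -0.63 whichever array was left out. With the spread of each array as a covariate 7 members were called (1.59% of all genes) and the median was -0.34 (-0.04 in the strongly expressed genes). Without the 2 widest arrays (wild type tumor 3 and deletion tumor 3) 0 were called (0% of all genes) and the median was -0.45.

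Within single arrays, the median over the 75 subunits was 7.30 to 7.54 in wild type tumor, 7.14 to 7.81 in deletion tumor, 6.62 to 6.84 in wild type stroma and 6.62 to 7.04 in deletion stroma. Over all subunits together, every tumor array thus lay above every stroma array, whereas the medians of complexes II and V alone overlapped between the tissues. The spans of the genotypes overlapped within each tissue. The complexes gave like medians of the log2 difference: -0.56 for complex I, -0.44 for complex II, -0.60 for complex III, -0.59 for complex IV and -0.56 for complex V. Genes called lower numbered 10 of 33 subunits tested in complex I, 1 of 4 in complex II, 2 of 7 in complex III, 7 of 14 in complex IV and 6 of 17 in complex V. Differences between complexes were not tested.

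**Figure D1:**
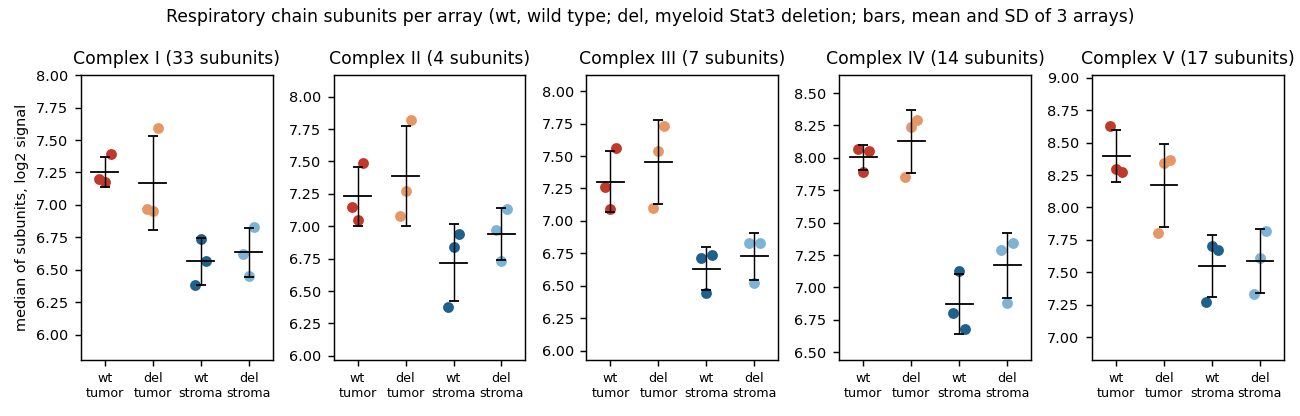
Median log2 signal over the tested subunits of each complex in each of the 12 arrays, by group (points, arrays; horizontal lines and bars, mean and SD of 3 arrays; vertical axes span the same range of log2 signal but start at different values). Tumor and stroma arrays are separate for complexes I, III and IV (7.85 to 8.29 against 6.68 to 7.34 in complex IV) and overlap for complex II (wild type tumor 2 at 7.05, deletion stroma 3 at 7.13) and complex V (deletion tumor 1 at 7.80, deletion stroma 3 at 7.82).

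Complex I takes electrons from NADH through a peripheral arm that carries flavin and iron-sulfur clusters, and pumps protons through a membrane arm. Its strongest difference by p was in Ndufa12, an accessory subunit of the peripheral arm. In tumor its log2 signal was 9.49, 8.83 and 9.24 in wild type and 8.87, 9.34 and 9.56 in the deletion; in stroma it was 8.23, 8.04 and 7.88 in wild type and 7.96, 7.66 and 8.61 in the deletion. The lowest tumor array stood above the highest stroma array. The difference was -1.16 ± 0.19 (SE), or 2.24-fold lower in stroma (limma adjusted p = 0.0216). Ndufa11, an accessory subunit of the membrane arm, read 9.31, 9.50 and 9.48 in wild type tumor, 8.98, 9.10 and 9.66 in deletion tumor, 8.24, 8.68 and 8.74 in wild type stroma and 8.32, 8.06 and 8.70 in deletion stroma. Again no stroma array reached the tumor arrays, and the difference was -0.88 ± 0.17 (SE; 1.84-fold, limma adjusted p = 0.0283).

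Ndufc2, another membrane arm subunit, measured 8.67, 8.49 and 8.67 in wild type tumor and 7.96, 8.24 and 8.72 in deletion tumor, against 7.52, 7.88 and 7.79 and 7.31, 7.58 and 7.83 in the matching stroma. It was 1.75-fold lower in stroma (-0.81 ± 0.16 SE, limma adjusted p = 0.0294), and the tissues did not overlap. For Ndufa6, which binds the mitochondrial acyl carrier protein, the arrays gave 8.39, 8.55 and 9.07 in wild type tumor and 7.54, 8.16 and 8.64 in deletion tumor. The stroma arrays gave 6.77, 7.57 and 7.55 in wild type and 7.30, 7.28 and 7.35 in the deletion. Deletion tumor 1 lay just below the highest wild type stroma arrays, so the tissues overlapped, and the difference was -1.09 ± 0.21 (SE; 2.12-fold, limma adjusted p = 0.0283). Ndufb9, a membrane arm subunit, fell by 1.03 on the log2 scale (adjusted p = 0.0312).

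Ndufa4 is named for complex I and is now counted with complex IV. By its symbol it stayed in the complex I counts and medians given here, among the accessory subunits, and not in those of complex IV. It read 9.15, 9.08 and 9.63 in wild type tumor, 7.96, 8.95 and 9.07 in deletion tumor, 7.92, 8.58 and 8.37 in wild type stroma and 7.47, 7.75 and 8.08 in deletion stroma. It was 1.92-fold lower in stroma (-0.94 ± 0.21 SE, limma adjusted p = 0.0369), with deletion tumor 1 inside the range of the stroma arrays. Ndufa3, Ndufa7 and Ndufc1 fell by smaller amounts, 1.54-fold to 1.55-fold.

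The 6 core subunits of complex I measured here belong to the peripheral arm, where most of the core subunits carry the flavin or iron-sulfur clusters. All lay below 0, with a median of -0.66, and 1 of them passed: Ndufs8, an iron-sulfur subunit, was 1.71-fold lower in stroma (-0.77 ± 0.16 SE, adjusted p = 0.0326). Ndufv1, the flavin subunit that oxidises NADH, had -0.48 ± 0.14 (SE, adjusted p = 0.0809), Ndufv2 -0.87 ± 0.23 (SE, adjusted p = 0.0615) and Ndufs7, which holds the last cluster before ubiquinone, -0.28 ± 0.12 (SE, adjusted p = 0.196). Among the accessory subunits 9 of 27 passed and 26 lay below 0, with a median of -0.56. Ndufs5 was the 1 complex I subunit above 0, at 0.15 ± 0.15 (SE), and Ndufb11 was at 0.00 ± 0.19 (SE).

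Complex II, succinate dehydrogenase, links the tricarboxylic acid cycle to the chain. Its membrane anchor Sdhd had 8.15, 7.87 and 7.69 in wild type tumor, 7.95, 8.20 and 8.55 in deletion tumor, 7.15, 7.15 and 7.17 in wild type stroma and 7.08, 6.88 and 7.67 in deletion stroma. Tumor and stroma arrays were separate, by a narrow margin between wild type tumor 3 and deletion stroma 3. Sdhd was 1.85-fold lower in stroma (-0.89 ± 0.16 SE, limma adjusted p = 0.0283). The other anchor, Sdhc, had -0.45 ± 0.18 (SE), the iron-sulfur subunit Sdhb -0.43 ± 0.14 (SE) and the flavin subunit Sdha -0.43 ± 0.23 (SE), with adjusted p = 0.171, 0.0948 and 0.28. For Sdhb the arrays were 6.98, 6.81 and 7.30 in wild type tumor, 7.01, 7.10 and 7.38 in deletion tumor, 6.50, 6.53 and 6.71 in wild type stroma and 6.86, 6.59 and 6.79 in deletion stroma, with wild type tumor 2 below deletion stroma 1.

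Complex III passes electrons from ubiquinol to cytochrome c. Uqcrb, the ubiquinone-binding subunit, had the largest difference among the 82 genes and also the widest spread. Its arrays were 7.08, 6.85 and 8.59 in wild type tumor and 6.34, 7.55 and 7.89 in deletion tumor, against 5.53, 5.90 and 6.36 in wild type stroma and 6.36, 5.65 and 6.45 in deletion stroma. Wild type tumor 3 stood high and deletion tumor 1 lay among the stroma arrays. The difference was -1.34 ± 0.32 (SE; 2.53-fold, limma adjusted p = 0.0421). Uqcrh, the hinge protein, read 8.20, 8.27 and 8.98 in wild type tumor, 7.96, 7.81 and 8.31 in deletion tumor, 7.27, 7.70 and 7.61 in wild type stroma and 7.40, 7.54 and 7.65 in deletion stroma. It was 1.66-fold lower in stroma (-0.73 ± 0.17 SE, limma adjusted p = 0.0389) without overlap, while its pseudogene Uqcrh-ps1 had -0.04 ± 0.24 (SE). All 7 subunits of the complex lay below 0, including the Rieske iron-sulfur protein Uqcrfs1 (-0.60 ± 0.16 SE, adjusted p = 0.0558) and the core proteins Uqcrc1 and Uqcrc2 (-0.48 and -0.66, adjusted p = 0.109 and 0.0608).

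Complex IV, cytochrome c oxidase, is built around subunits encoded by mitochondrial DNA, with small nuclear subunits on its outside. Cox7b had the smallest p of all members. Its arrays read 7.84, 7.44 and 7.90 in wild type tumor, 7.48, 8.12 and 7.90 in deletion tumor, 5.99, 6.57 and 6.10 in wild type stroma and 6.94, 6.38 and 6.85 in deletion stroma. The tissues were separate, and the difference was -1.31 ± 0.17 (SE; 2.48-fold, limma adjusted p = 0.0209). A second, dimmer probe set of Cox7b gave only -0.12 ± 0.15 (SE). The same held for Cox5b, with -0.82 ± 0.19 (SE) on the probe set used and 0.12 ± 0.22 (SE) on the other, and for Ndufa11, with -0.03 ± 0.21 (SE) on the other. For Ndufa12 both probe sets were lower (-1.16 and -0.69). Of the 85 genes 10 had more than 1 probe set of their own.

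Cox4i1, the widely expressed form of the largest nuclear subunit, measured 9.15, 9.10 and 9.28 in wild type tumor, 8.96, 9.49 and 9.53 in deletion tumor, 8.17, 8.48 and 8.42 in wild type stroma and 8.78, 8.61 and 8.88 in deletion stroma. No stroma array reached the tumor range, and the difference was -0.69 ± 0.14 (SE; 1.62-fold, limma adjusted p = 0.0312). Cox7a2 gave 8.30, 8.34 and 8.20 in wild type tumor and 8.25, 8.35 and 8.69 in deletion tumor, with 7.64, 7.69 and 7.27 in wild type stroma and 7.64, 7.51 and 7.84 in deletion stroma. It too separated the tissues (-0.76 ± 0.14 SE, 1.69-fold, limma adjusted p = 0.0283). Cox5a, Cox5b, Cox6a1 and Cox6b1 also fell, by 1.52-fold to 1.78-fold. Cox8a (-0.49 ± 0.14 SE, adjusted p = 0.0764) and Cox7c (-0.20 ± 0.16 SE) did not pass.

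Several complex IV subunits exist as a widely expressed form and a form restricted to some tissues, such as heart and skeletal muscle (Cox6a2, Cox7a1, Cox8b), testis (Cox6b2) or lung and cells at low oxygen (Cox4i2). Of the 5 restricted forms tested, 0 passed limma's test, 4 lay above 0 and the median was 0.21, whereas the 9 widely expressed subunits all lay below 0 with a median of -0.74 and 7 called. The restricted forms also had weaker signals, with means over the tumor arrays of 3.92 (Cox8b) to 5.91 (Cox6a2). Those of the widely expressed subunits were 5.47 (Cox7c) to 11.16 (Cox6a1). The part of signal strength in this contrast was not tested. The restricted forms' median was 0.00 with the spread of each array as a covariate. Cox4i2 read 5.17, 4.93 and 4.95 in wild type tumor, 5.29, 4.91 and 4.46 in deletion tumor, 5.56, 5.31 and 5.47 in wild type stroma and 5.22, 5.35 and 5.38 in deletion stroma. Its difference was 0.43 ± 0.15 (SE, limma adjusted p = 0.12), and deletion tumor 1 lay within the stroma range. This was the single member above 0 at an unadjusted p of 0.05, where 7.11% of all genes stood higher and 15.1% lower; 61 members were below that p on the lower side. Cox6a2 had 0.21 ± 0.15 (SE) and Cox8b 0.12 ± 0.21 (SE), and both changed sign or went to 0.00 in some settings given in the closing section. Cox7a1 went the other way, at -0.59 ± 0.21 (SE, adjusted p = 0.121).

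Ndufa4l2, a paralog of Ndufa4 known to be induced at low oxygen, read 5.21, 5.11 and 5.32 in wild type tumor, 5.19, 5.11 and 5.31 in deletion tumor, 6.00, 4.94 and 5.97 in wild type stroma and 5.18, 5.36 and 5.35 in deletion stroma. Wild type stroma 1 and 3 stood above all other arrays, and the difference of 0.26 ± 0.18 (SE) did not pass (limma adjusted p = 0.389). Probes of paralogs can share sequence, and how far the probe sets separate them was not tested.

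**Figure D2:**
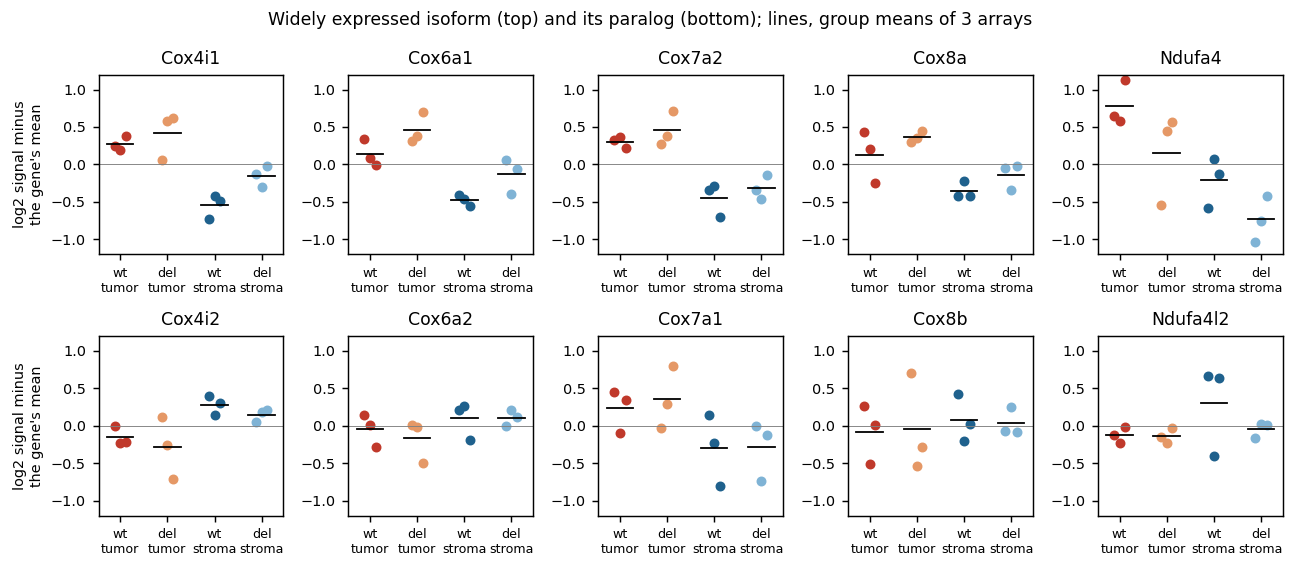
Log2 signal of 4 widely expressed complex IV subunits and of Ndufa4 (top) and of a paralog of each (bottom) in the 12 arrays, each gene centred on its own mean (points, arrays; lines, means of 3 arrays). Both stroma means lie below both tumor means in the top panels, while Cox4i2 has a log2 difference of 0.43 and Cox7a1 of -0.59.

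Complex V, the ATP synthase, has a catalytic head, a rotating central stalk with a ring of c subunits, a peripheral stalk and small subunits in the membrane. The small membrane subunits held 4 of the 6 calls. Atp5md, the first of these by p, read 10.21, 10.01 and 10.43 in wild type tumor, 9.68, 9.99 and 10.08 in deletion tumor, 9.09, 9.15 and 8.97 in wild type stroma and 8.94, 8.99 and 9.22 in deletion stroma. The stroma arrays were close together and all below the tumor arrays, with a difference of -1.01 ± 0.14 (SE; 2.01-fold, limma adjusted p = 0.0209). Atp5l, subunit g, gave 10.20, 10.06 and 10.18 in wild type tumor and 9.80, 10.40 and 10.31 in deletion tumor, against 9.28, 9.13 and 8.95 and 9.34, 9.51 and 9.53 in the matching stroma. It was 1.83-fold lower in stroma, again without overlap (-0.87 ± 0.14 SE, limma adjusted p = 0.0216).

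For Atp5mpl, a small proteolipid of the complex, the tumor arrays were 8.63, 8.31 and 8.27 in wild type and 7.80, 8.60 and 8.37 in the deletion, and the stroma arrays 7.26, 7.61 and 7.01 and 7.33, 7.30 and 7.70. The ranges nearly met at deletion tumor 1 and deletion stroma 3, and the difference was -0.96 ± 0.17 (SE; 1.95-fold, limma adjusted p = 0.0283). Atp5k, subunit e, which with subunit g joins the synthase into dimers, had 8.76, 8.42 and 8.61 in wild type tumor, 8.44, 8.34 and 8.76 in deletion tumor, 8.05, 7.70 and 7.67 in wild type stroma and 7.80, 7.61 and 8.13 in deletion stroma. It separated the tissues at -0.73 ± 0.15 (SE; 1.66-fold, limma adjusted p = 0.0312). The remaining membrane subunit, Atp5j2, had 0.13 ± 0.17 (SE).

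The catalytic head itself did not pass: Atp5a1 and Atp5b, the alpha and beta subunits, had -0.56 ± 0.16 and -0.54 ± 0.18 (SE), with adjusted p = 0.0695 and 0.104. Of the 3 central stalk genes 0 passed (median -0.38, 2 below an unadjusted p of 0.05), and of the 4 peripheral stalk genes Atp5j passed (-0.61 ± 0.15 SE, adjusted p = 0.0478). Atp5g1, Atp5g2 and Atp5g3 encode the same mature c subunit with different import sequences. Atp5g3 read 7.63, 7.35 and 7.29 in wild type tumor, 7.34, 7.45 and 7.82 in deletion tumor, 6.84, 6.88 and 6.75 in wild type stroma and 7.04, 6.52 and 7.17 in deletion stroma, and fell 1.53-fold without overlap (limma adjusted p = 0.0478). Atp5g2 had -0.47 ± 0.17 (SE, adjusted p = 0.121). Atp5g1 had 0.42 ± 0.28 (SE, adjusted p = 0.376) with wild type tumor 3 far below the others at 3.46.

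**Figure D3:**
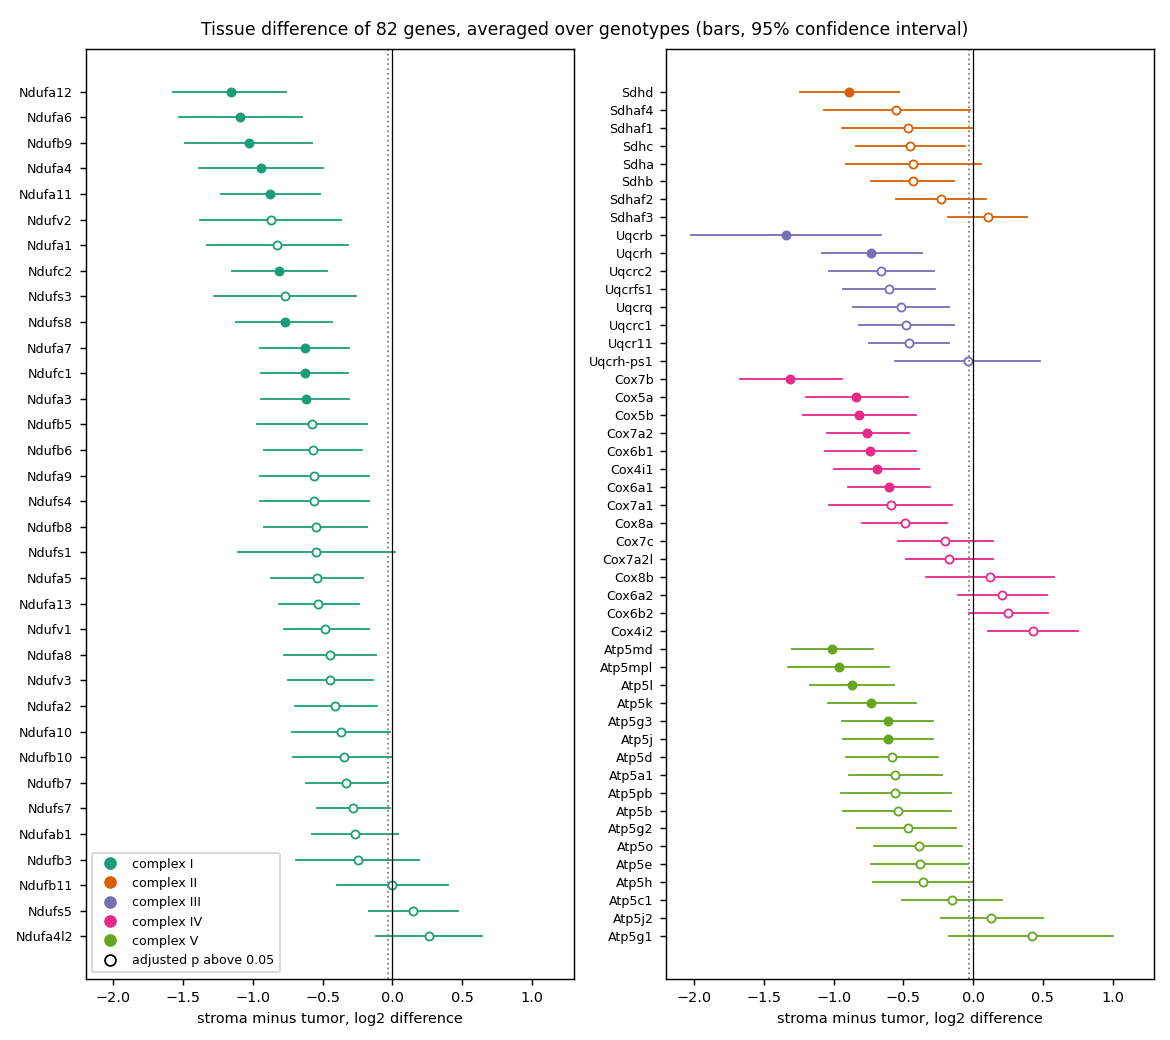
Log2 difference of stroma minus tumor, averaged over genotypes, for the 82 tested genes with 95% confidence intervals (filled points, adjusted p at or below 0.05; open points, above; dotted line, median of all genes tested). The filled points all lie left of 0, from -1.34 for Uqcrb to -0.60 for Cox6a1.

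Each genotype alone had 3 arrays a tissue, and limma called 0 genes of any kind (0% of 16635) in wild type or in the deletion. With the replicate number as a block, 9 members were called in wild type (0.83% of all genes) and 2 in the deletion (0.914%). In wild type 71 of the 82 members lay below 0, with a median of -0.56, and 48 were lower and 0 higher at an unadjusted p of 0.05 (11.6% and 5.12% of all genes). In the deletion 74 lay below 0, with a median of -0.49, and 43 were lower and 0 higher at that p (5.6% and 4.08% of all genes). The median of the strongly expressed genes was -0.37 in wild type and -0.16 in the deletion. Without deletion tumor 3 the median within the deletion was -0.33 for the members and -0.03 for the strongly expressed genes. Wild type arrays did not overlap for 58 members on the lower side (15% of all genes) and 3 on the higher (8.88%), and deletion arrays for 38 on the lower side (7.16%). Cox7b, for example, had -1.51 ± 0.24 (SE) in wild type and -1.11 ± 0.24 (SE) in the deletion. The difference between the genotypes in this tissue contrast was tested as an interaction: 0 members passed (0% of all genes), 0 had an unadjusted p below 0.05 (1.33% of all genes above 0 and 1.08% below), and the median was 0.07. That median turned to -0.09 after quantile normalization (53 of 82 below 0) and to -0.02 with the spread covariate or without deletion tumor 1 or deletion stroma 3, and it was 0.23 without deletion tumor 3.

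Deletion of Stat3 in myeloid cells was not accompanied by a called change of any member. In stroma, 0 of 82 passed limma's test (0% of all genes), 1 had an unadjusted p below 0.05, on the higher side (3.14% of all genes, and 1.94% on the lower), 59 lay above 0 and the median log2 difference of deletion minus wild type was 0.09. The median was 0.02 without deletion stroma 3 (36 below 0) and 0.19 without deletion stroma 2. The 1 gene was Cox5a, which read 8.24, 8.23 and 7.91 in wild type stroma and 8.72, 8.43 and 8.85 in deletion stroma. Its groups did not overlap and the difference was 0.54 ± 0.24 (SE, 95% confidence interval 0.02 to 1.06, limma adjusted p = 0.966). In all, 7 members were higher without overlap (5.13% of all genes) and 0 were lower (5.62%). In each complex the member with the smallest p had Ndufa4 at -0.53 (interval -1.16 to 0.11), Sdha at 0.42 (-0.27 to 1.11), Uqcrfs1 at 0.24 (-0.23 to 0.71), Cox5a as given and Atp5l at 0.34 (-0.09 to 0.76).

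In tumor, 0 of 82 passed (0.018% of all genes), 0 had an unadjusted p below 0.05 (1.76% of all genes on the higher side and 4.5% on the lower) and the median was 0.01. With the replicate number across the genotypes as a fixed block, which joins different mice, the members still had 0 calls (0.535% of all genes). The median had no settled direction: it was 0.14 after quantile normalization, 0.13 with the spread covariate, 0.15 without deletion tumor 1 and -0.12 without deletion tumor 3 (57 below 0). Ndufa4 came closest, at -0.62 with an interval of -1.26 to 0.01. Its wild type and deletion tumor arrays nearly met, at 9.08 in wild type tumor 2 and 9.07 in deletion tumor 3. Uqcrh had -0.45 (-0.96 to 0.05), Cox6a1 0.32 (-0.10 to 0.74), Atp5md -0.30 (-0.71 to 0.11) and the assembly factor Sdhaf4 -0.56 (-1.31 to 0.18). With the tissues averaged, 0 members passed (0.283% of all genes) and the median was 0.05. At an unadjusted p of 0.05, Cox5a (0.39), Cox6a1 (0.33) and Ndufs7 (0.28) were higher in the deletion and Ndufa4 (-0.58) was lower (3.52% and 4.71% of all genes), with adjusted p = 0.55, 0.504, 0.556 and 0.381. These intervals leave room for differences of about the size seen between the tissues for some genes, so a p above the threshold does not show that the genotypes were alike. In stroma the leukocyte marker median was 5.27 to 6.44 in wild type and 7.01 to 7.47 in the deletion, and the goblet cell median 6.31 to 8.16 and 8.69 to 9.75; their part in the genotype values of the members was not tested.

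**Figure D4:**
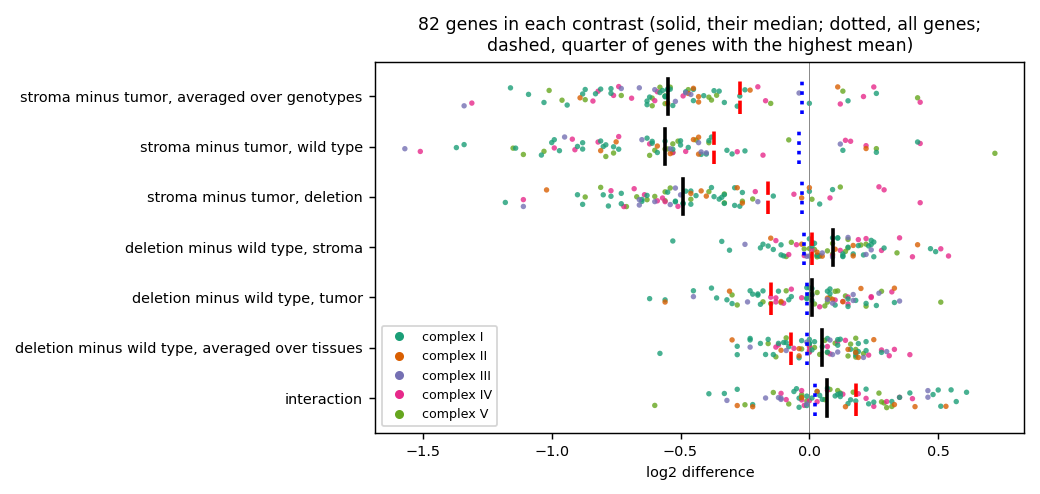
Log2 differences of the 82 tested genes in each of 7 contrasts (points, genes, coloured by complex and scattered vertically; solid line, their median; dotted, median of all genes; dashed, median of the 25% of genes with the highest mean). The medians lie between -0.56 and -0.49 in the tissue contrasts and between 0.01 and 0.09 in the others.

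Genes around the chain were compared in the same tissue contrast. The 10 subunits encoded by mitochondrial DNA that had a probe set, a list added after the names in the annotation were seen, all lay below 0 with a median of -0.18, and limma called 0 (1 below an unadjusted p of 0.05). The median was -0.03 with the spread of each array as a covariate and -0.08 without the 2 widest arrays. The largest of these differences was that of ND3, a complex I subunit, at -0.37 ± 0.13 (SE, adjusted p = 0.117). Of 40 assembly factors, a list that includes the 4 Sdhaf genes, 36 lay below 0 with a median of -0.24, and Coa3, needed to assemble complex IV, fell 1.59-fold (adjusted p = 0.0450). The list had 0 calls without the filter, after quantile normalization or median centring, with the trended, robust variance model, with the spread covariate (median -0.08), without the 2 widest arrays and in 10 of the 12 fits that left out 1 array (all but those without wild type tumor 2 or deletion tumor 1). The list of 18 electron and nucleotide carriers also held Coq genes of ubiquinone synthesis, the Vdac pores and Cyc1 of complex III. All 18 lay below 0 (median -0.43), and Cycs, cytochrome c, fell 2.20-fold (-1.14 ± 0.22 SE, adjusted p = 0.0294). All 13 tricarboxylic acid cycle genes lay below 0 with a median of -0.44 and 0 calls, although 7 had an unadjusted p below 0.05; citrate synthase, Cs, had -0.67 ± 0.18 (SE, adjusted p = 0.0628). The median of this list was -0.04 with the spread covariate and -0.23 without the 2 widest arrays.

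Of 69 mitochondrial ribosome genes 66 lay below 0 (median -0.38) and 6 were called, led by Mrpl32 at -1.05 ± 0.19 (SE, adjusted p = 0.0283) and Mrpl42 at -1.13 ± 0.22 (SE, adjusted p = 0.0294). With the spread covariate the ribosome genes had a median of -0.17 and 0 calls, and both they and the carriers had 0 calls without the 2 widest arrays and without any 1 of deletion stroma 2, deletion tumor 2, deletion tumor 3, wild type tumor 1, wild type tumor 3 or wild type stroma 3. The carriers had 0 calls with the covariate too (median -0.28). Regulators of mitochondrial biogenesis stood nearer to 0: 10 of 12 lay below it, with a median of -0.18, 0 calls and 1 gene below an unadjusted p of 0.05. That gene was the coactivator Ppargc1a (-0.43 ± 0.20 SE, adjusted p = 0.214). The 11 glycolysis genes were also all below 0, with a median of -0.46, 0 calls and 7 below an unadjusted p of 0.05.

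Marker RNA of several cell types differed between the captures along with the members. The median over 11 epithelial markers was 8.27 to 8.91 in wild type tumor and 8.26 to 9.05 in deletion tumor, against 7.60 to 7.75 in wild type stroma and 6.95 to 8.26 in deletion stroma, and all 11 passed the filter on low signal. The list's median difference was -1.01, led by Krt18, a keratin, at -1.21 ± 0.19 (SE, adjusted p = 0.0216), and that of the goblet cell markers was -1.13. Medians of 0.54, 0.68, 0.49 and 1.09 were found for markers of fibroblasts, endothelium, smooth muscle and leukocytes. Of the 6 striated muscle markers 4 were tested, with a median of 0.20 and 0 calls (1 below an unadjusted p of 0.05), and all 3 brown fat markers were below the filter. In captured tissue, fewer cells of a type and less RNA per cell cannot be told apart, and the part of these markers' cell types in the members' differences was not tested.

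**Figure D5:**
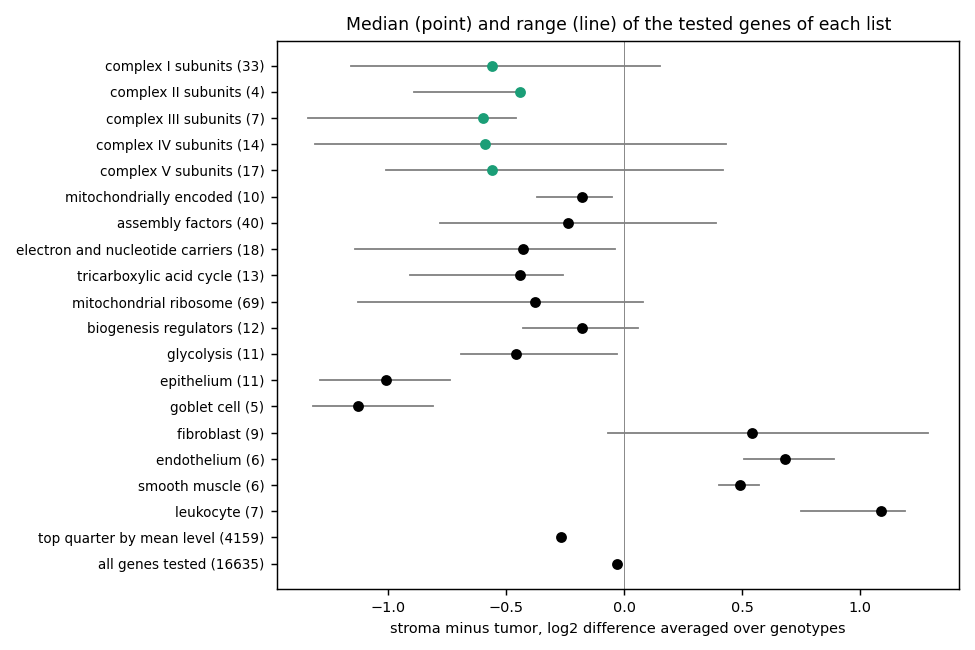
Median (points) and range (lines) of the log2 difference of stroma minus tumor, averaged over genotypes, for the subunits of each complex (green), other mitochondrial and glycolytic lists, cell type markers, the 25% of genes with the highest mean and all genes tested (the number of tested genes in parentheses; the last 2 are shown without a range). The complexes lie between -0.60 and -0.44, between the epithelial markers at -1.01 and all genes at -0.03.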

How the data were processed

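Expression was measured on 12 single-colour Affymetrix arrays from RNA of fixed, laser-captured tissue, of which 50 ng per sample were amplified, per the labels' protocols. Per the submitters' processing notes, the authors ran robust multi-array average (RMA) in Affymetrix Expression Console 1.3.1, and the resulting log2 signals of 41345 probe sets were used as deposited; the scanner files were not used here. RMA places the arrays on a common scale, but the deposited arrays still differed in spread. The number of arrays limits the precision.

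Probe sets with 1 gene symbol in the platform annotation (23521; 1814 had several symbols and 16010 were not listed) gave 22180 genes, each represented by the probe set with the highest mean. Genes in the lowest 25% by mean (a log2 signal under 3.65) were left out. With limma 3.58.1 under R 4.3.3, the means of the 4 groups were estimated, 7 contrasts were taken with moderated statistics, and p-values were adjusted by Benjamini-Hochberg over 16635 genes within a contrast at 0.05. The tests were two-sided, and the pipeline was tested on simulated data. The p-values measure the spread between samples of the same group. Whether tumor and stroma samples came from the same mice is not stated, and the main fit took them as independent.

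Values per array are given for up to 12 called members by p, the 2 members of each complex with the smallest p between tissues and the 1 with the smallest p between genotypes in each tissue, fixed paralogs and Stat3; other members appear in counts, ranges or as examples chosen by role. For each gene list up to 3 members with the smallest p could be named. The members, lists and tests were chosen with earlier results of these data known. Deviations of same-numbered tumor and stroma arrays from their group means correlated at -0.00414 to 0.512 in wild type and 0.123 to 0.298 in the deletion, and those of same-numbered arrays of the genotypes at 0.150 to 0.692 in tumor and -0.0404 to 0.152 in stroma. The main fit did not take the numbers to pair the samples. A block by replicate number was fitted only as an alternative, in every contrast, and the labels do not state such a pairing. In the tissue and interaction contrasts the fixed block was the number within a genotype. In the genotype contrasts it was the number across genotypes, which joins arrays of different mice. The random block was the number within a genotype throughout. Alternatives covered the filter, the probe set per gene, normalization, array spread, array weights, the variance model, pairing, the leaving out of each array and a restriction to subunits.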

Additional observations from a re-analysis of the deposited data

How the results depend on the processing

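Lower signal of the respiratory chain genes in stroma kept its direction under all alternatives run (median -0.34 to -0.63, between 71 and 73 of 82 genes below 0, or of 85 without the filter), but the number of calls did not keep its size. Against 26 genes called with the genotypes averaged (2.55% of all genes), 7 were called with the spread of each array as a covariate (1.59%). Without the 2 arrays of widest spread 0 were called (0%). Array weights gave 61, where 23% of all genes were called and the weights did not fully converge. The replicate number as a block gave 46 (fixed block, 11.3% of all genes) and 51 (random block, 9.91%). Leaving out 1 array gave 0 to 42, the latter without deletion tumor 1 (7.79% of all genes). It gave 2 without deletion stroma 2 (0.0361%) and 7 without wild type tumor 3 (0.271%). It gave 13 without wild type stroma 2 (1.01%) and 15 without wild type stroma 1 (1.64%). Quantile normalization, median centring and the trended, robust variance model gave 18 each (2.65%, 1.01% and 1.93% of all genes). Among all genes, 141 of 425 calls were higher in stroma, against 246 of 440 after quantile normalization and 228 of 264 with the spread covariate. The median of strongly expressed genes moved from -0.27 to -0.08 and -0.04 under those settings, and that of the members to -0.36 and -0.34.

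Within wild type, the count of 0 became 55 with array weights (23.8% of all genes). It was 9 with the fixed (0.83%) and 2 with the random replicate block (0.0301%). With 1 array left out it was 0 to 1 (1 without wild type stroma 2, 0.0481% of all genes). The median of -0.56 moved to -0.32 after quantile normalization and -0.33 with the spread covariate. Within the deletion, the count of 0 became 1 with the spread covariate (0.685% of all genes) and 19 with array weights (4.37%). It was 2 with the fixed (0.914%) and 3 with the random replicate block (0.373%). Between genotypes in tumor, array weights gave 1 call among the members, where 9.49% of all genes were called. Cox6a2 went to 0.00 and Cox8b to -0.06 with the spread covariate, and Cox8b to between 0.00 (without deletion tumor 2) and 0.30 with 1 array left out. Stat3 in stroma (0.00) became -0.01 after quantile normalization or with the spread covariate, 0.00 with array weights, and between -0.32 (without wild type stroma 1) and 0.33 with 1 array left out, and Stat3 in tumor became 0.14 with the spread covariate. The cause of these changes was not tested. Same-numbered tumor and stroma arrays correlated best with each other for 9 of 12 arrays. The largest correlation of same-numbered arrays, 0.692, was however between wild type tumor 3 and deletion tumor 3. Those come from different mice and are the 2 arrays of widest spread. What the numbers mark is not stated in the design and was not tested. Medians of all 5 complexes stayed below 0 in every setting, whereas with the spread covariate that of the biogenesis regulators reached 0.01, that of the mitochondrially encoded subunits -0.03, that of the tricarboxylic acid cycle -0.04 and that of the assembly factors -0.08. The genotype and interaction medians turned sign in some settings: between genotypes in tumor (0.01) the median ran from -0.12 to 0.15 and in the interaction (0.07) from -0.09 to 0.23, with the tissues averaged (0.05) from -0.01 to 0.12, while in stroma (0.09) it ran from 0.02 to 0.19.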
